A study of Mus musculus with 21 samples.

Results

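Heat-shock proteins and chaperonins were followed in CD4+ and CD8+ T cells from the mouse spleen. Members were the genes whose names begin as those of the Hsp proteins, of the Dnaj co-chaperones (subfamilies a, b and c) or of the Cct subunits, together with Tcp1, which encodes the first CCT subunit. The rule gave 68 of the 12994 genes in the table. Of these, 50 had a mean normalized count above 2 over the 21 samples, and 32 had a mean above 10.

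Chaperones help other proteins to reach and keep their shape. HSP70 proteins bind short stretches of unfolded chains in an ATP-driven cycle, J-domain proteins (DNAJ) deliver the clients and start the hydrolysis, HSP110 exchanges the nucleotide, and HSP90 proteins finish kinases, nuclear receptors and other signalling clients. CCT is a closed chamber of related subunits that folds actin and tubulin in the cytosol, and HSPD1 with its lid HSPE1 does the same work in mitochondria. The transcription factor HSF1 raises the heat-inducible members when unfolded protein accumulates, and T cells are known to raise several chaperones when they are activated.

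The cells came from female C57BL6/J mice that entered their housing at the age of 4 weeks and stayed there for 4 weeks. The housing was either an enriched environment (EE, large cages with wheels, toys and tunnels) or a standard environment (SE, smaller cages without objects). LT4, the CD4+ T cells, came from 6 EE and 5 SE mice, and LT8, the CD8+ T cells, from 6 EE and 4 SE mice. The labels state no genetic change and no other treatment, and they place the mice of one environment in a single cage, so cage and environment cannot be told apart. Both populations were measured in 9 mice, 6 of EE and 3 of SE (the SE mice numbered 1, 3 and 6). The libraries carried unique molecular identifiers, so molecules rather than reads were counted. The deposited value, here called the normalized count, is this number of molecules scaled for the depth of the sample. A molecule is counted once, whatever the length of its transcript.

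The samples held 145546 to 221454 molecules. Cd4 had 42.7 to 85.8 normalized counts in CD4+ samples and at most 0.966 in CD8+ samples, while Cd8a had at least 72.5 in CD8+ samples and at most 3.09 in CD4+ samples. Cd8b1 had at least 177 in CD8+ samples, and 1.26 to 3.66 in CD4+ EE and 1.83 to 9.15 in CD4+ SE samples. Genes of other cells were also present. The sum of 6 B cell markers was 35.0 to 293 in CD4+ samples and 33.0 to 100 in CD8+ samples. The sum of 4 globin genes reached 578 in the CD8+ sample of EE mouse 6 and 1028 in that of SE mouse 3, and was at most 26.7 in every other sample, and comparisons that turned on these 2 samples are given also without them. In sorted bulk samples, fewer cells of a type and less RNA per cell cannot be told apart.

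HSF1 binds repeats of the letters GAA, and a pair facing each other, GAANNTTC or TTCNNGAA, was searched for on both strands in the 250 bases before each RefSeq start site (build GRCm38.p6). Both words are their own reverse complement, and they may overlap. A window was given for 54 of the 68 members. The pair was found in 12.8% of all 32851 windows and in 22.5% of the 71 windows of members. A list of heat-inducible members held Hspa1a, Hspa1b, Hspa8, Hsph1, Hsp90aa1, Hsp90ab1, Hspd1, Hspe1, Dnaja1, Dnajb1, Dnajb4 and Hspa4l. Hspa8 and Hsp90ab1 are abundant without heat, and the list is one of background knowledge, not of these data. No window was given for Hspa8, Hsp90aa1 or Hsp90ab1. The pair stood in 53.3% of the 15 windows of the other 9 genes of the list, and in 14.3% of the 56 windows of the other members. Windows of one gene, or of genes that share a stretch, can hold the same element, so the windows are not independent. By gene, the pair was found in 7 of these 9, in 7 of the 45 other members with a window and in 3932 of all 27025 genes. A match is a description of these letters and not a measured site. The stretches of 4 members of that list and of 1 other member are shown, since the results turn on Dnaja1, Hsph1 and Hspe1, with the element in capitals, each written on its gene's own strand.

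Dnaja1, chr4:40722333-40722362, plus strand: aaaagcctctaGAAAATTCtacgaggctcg

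Hsph1, chr5:149636351-149636380, minus strand: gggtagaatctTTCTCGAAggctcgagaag

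Hspe1, chr1:55088053-55088082, plus strand: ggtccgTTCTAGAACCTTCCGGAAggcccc

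Hspd1, chr1:55088053-55088082, minus strand: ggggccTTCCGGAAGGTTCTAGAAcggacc

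Cct2, chr10:117063399-117063428, minus strand: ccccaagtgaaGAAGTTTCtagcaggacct

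Hspe1 and Hspd1, which encode the lid and the chamber of the mitochondrial chaperonin, are read away from each other and share one stretch, in which 3 pairs overlap. The element of Dnaja1 lay from -124 to -117 relative to a start site, and that of Hsph1 from -33 to -26. For Dnaja1 only 1 of 3 windows held the pair, for Cct2 and Hspd1 1 of 2, and for Hsph1 both of 2. By the GENCODE annotation, which places the start of these genes farther out, the stretches of Dnaja1, Hspd1 and Cct2 and the most part of that of Hsph1 lie inside the gene. Dnaja1 encodes a J-domain partner of HSP70 in the cytosol, and Hsph1 the HSP110 exchange factor. The element of Cct2, a CCT subunit, is shown beside them as one in a member outside the heat-inducible list. Hspa1a and Hspa1b, the classical heat-inducible HSP70 genes, also carried an element, the same one in both.

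CCT, HSP90, HSP70 and DNAJC genes made up most of the chaperone molecules in these T cells. CCT held 21.9% of the summed mean of all members, HSP90 19.5%, HSP70 18.7% and DNAJC 17.6%. The mitochondrial chaperonin followed with 8.52%, DNAJA with 6.47%, DNAJB with 4.77%, small heat-shock proteins with 0.803% and HSP110 with 0.608%. A few genes carried several of these classes. Hsp90ab1, the constitutive cytosolic HSP90, had a mean of 198 normalized counts, and Hspa8, the constitutive cytosolic HSP70, had 184. Hspe1 had 87.2 and Dnaja1 63.8, and the 8 CCT genes all had means above 10, though Cct6a, with 54.1, was the only CCT gene above 40 on average.

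**Figure D1:**
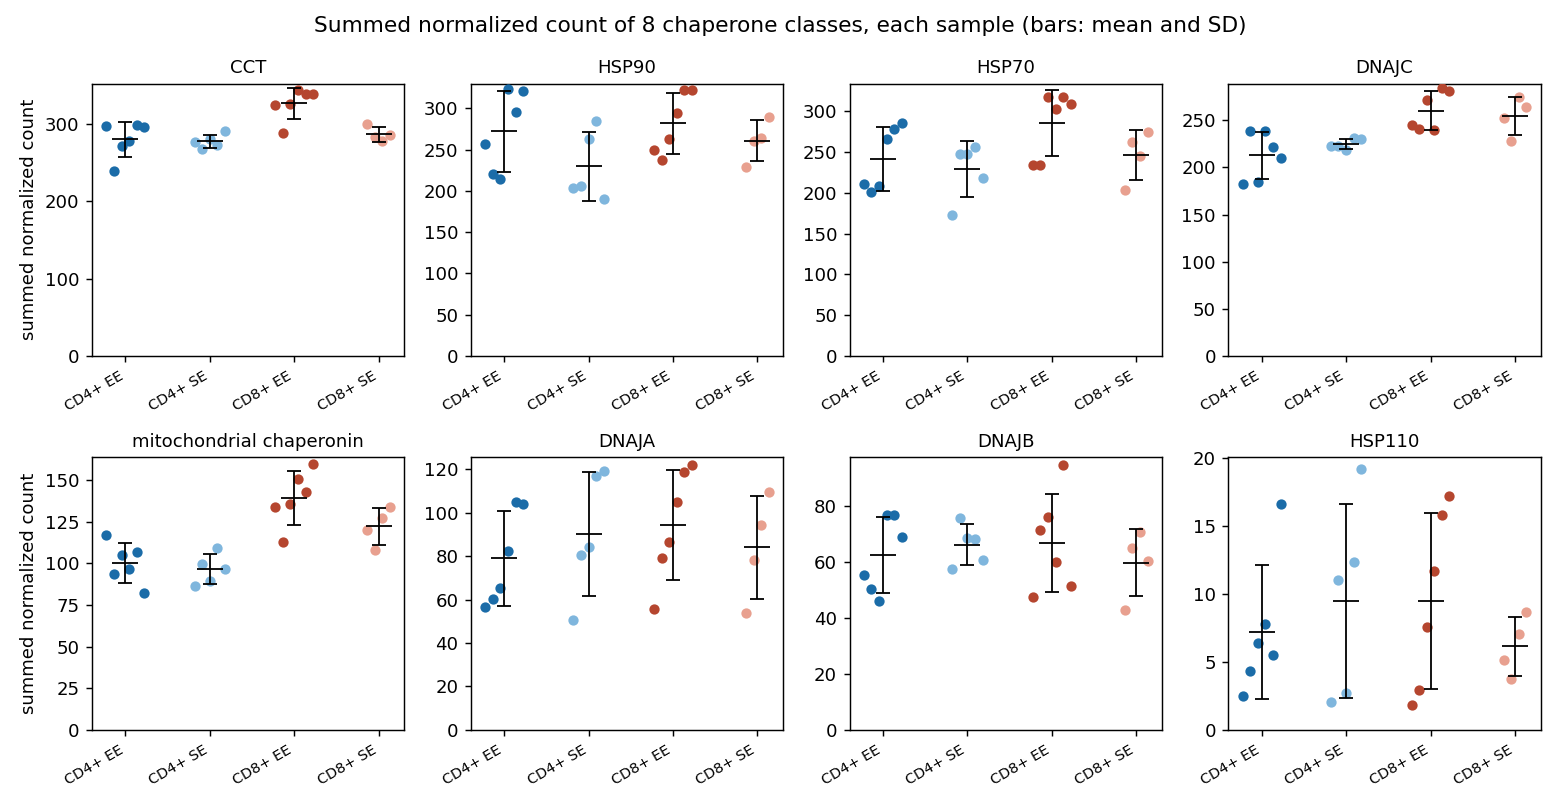
Summed normalized count of the members of 8 chaperone classes in each of the 21 samples by group, with the mean and SD as bars and axes from 0. The ranges of CD4+ and CD8+ samples overlap in every class shown, and DNAJA and HSP110 spread widely within each group.

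In the plot of class sums, the groups overlapped in most classes. In CD4+ cells the CCT sum had a median of 287 under EE (239 to 299) against 277 under SE (268 to 291). In CD8+ cells it had a median of 332 under EE (289 to 345) against 284 under SE (278 to 299.8), so the highest medians and values were those of CD8+ EE samples. The mitochondrial chaperonin ran from 82.1 to 117 in CD4+ samples of both environments and from 108 to 160 in CD8+ samples, with an overlap between 108 and 117. Of the 8 classes plotted, DNAJA and HSP110 had the widest spread within groups relative to their level. DNAJA ran from 56.7 to 105 in CD4+ EE samples and from 50.4 to 119 in CD4+ SE samples, and HSP110, which is Hsph1 alone, from 1.86 to 17.2 in CD8+ EE samples.

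The members with a mean of 2 or less were 18, and for these a level could hardly be measured at this depth. Hspa1a was seen as 5 molecules in 3 of the 21 samples and Hspa1b as 11 molecules in 5 samples. Both genes are nearly identical copies, and their counts are uncertain between them. Hspb6, a small heat-shock protein, had 21 molecules over 11 samples, and Dnajb4, a heat-inducible J-domain gene, 44 over 18 samples. Hspb11, the one gene named as a small heat-shock protein that passed a mean of 2, had a mean of 9.50, and its product is known as a subunit of intraflagellar transport rather than as a chaperone.

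No member was called between EE and SE in CD4+ T cells. Of 7939 genes tested with limma on log2(normalized count + 1), 0.0126% were called at an adjusted p under 0.05, and of the 50 members tested 0 were called, also by edgeR and DESeq2. With an unadjusted p under 0.05, limma gave 3 members, edgeR 3 and DESeq2 1. Leaving out 1 sample at a time, limma gave 1 to 4, with 1 without EE mouse 2, 4 or 6 or SE mouse 6. Of the 3 limma listed 2 higher and 1 lower in EE, beside 5.82% of all genes, 2.92% higher and 2.9% lower. No member had groups that did not overlap, beside 0.214% of genes higher and 0.239% lower without overlap. The members were listed higher in EE in 24 cases and lower in 26, with a median difference of -0.04 (log2) beside 0.0012 over all genes. This median ran from -0.07 to 0.03 when 1 sample was left out, so that its direction rests on single samples. The medians were 0.06 over 8 CCT genes, 0.27 over 3 HSP90 genes, -0.12 over 18 DNAJC genes and -0.25 over 3 DNAJA genes.

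The 3 members with an unadjusted p under 0.05 were Dnajc7, Dnajc3 and Hsp90ab1. Dnajc7, a co-chaperone that binds both HSP70 and HSP90, ran from 19.2 to 34.5 in EE (median 26.4) and had 18.5, 23.8, 11.0, 32.3 and 10.1 in SE. The difference was 0.58 ± 0.25 (SE) on the log2 scale (limma, adjusted p = 0.823). Hsp90ab1 ran from 152 to 234 in EE and had 152, 150, 180, 218 and 139 in SE, a difference of 0.27 ± 0.13 (limma, adjusted p = 0.835). Both pairs of groups overlapped, with the lowest samples in SE. Dnajc3, an inhibitor of the kinase PERK in the endoplasmic reticulum, was listed lower in EE. It ran from 19.4 to 40.2 in EE and had 28.8, 32.0, 43.9, 46.5 and 27.0 in SE, a difference of -0.47 ± 0.22 (limma, adjusted p = 0.831).

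In CD8+ T cells, too, no member was called between EE and SE. Of 51 members tested 0 were called, as were 0% of 7840 genes, and edgeR and DESeq2 called 0 members. With an unadjusted p under 0.05, limma gave 7 members, edgeR 7 and DESeq2 3. Leaving out 1 sample at a time, limma gave 4 to 9, with 4 without EE mouse 4 or SE mouse 1, and without both samples of high globin it gave 6. Limma listed 5 of the 7 higher and 2 lower in EE, beside 5.27% of all genes, 3.11% higher and 2.16% lower. Of the 51 members, 33 were listed higher in EE, beside 49.03% of all genes, with a median of 0.13 (log2) beside -0.0078 over all genes. Without the CD8+ sample of SE mouse 1 the median over the members was 0.06. The medians were 0.16 over 8 CCT genes, 0.10 over 3 HSP90 genes, 0.19 over 17 DNAJC genes, 0.23 over 8 DNAJB genes and -0.03 over 6 HSP70 genes.

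Cct4 (ENSMUSG00000007739), a CCT subunit on the plus strand of chromosome 11 from 22990519 to 23003780, had the smallest p among the members in CD8+ cells. It ran from 39.6 to 58.6 in the 6 EE samples (median 51.5) and had 32.5, 33.5, 31.8 and 36.5 in SE, and every EE sample stood above every SE sample. Groups did not overlap in this direction in 0.51% of all genes tested. The difference was 0.53 ± 0.17 (SE, log2) with limma, at an adjusted p of 0.68. In CD4+ cells Cct4 ran from 27.9 to 49 in EE and had 32.9, 33.9, 35.7, 32.3 and 38.3 in SE, which overlapped (difference 0.10 ± 0.19). The difference between both populations in this effect was -0.44 ± 0.25 and did not pass (limma, adjusted p = 0.994).

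The other 6 members with an unadjusted p under 0.05 in CD8+ cells were Cct8, Hspa5, Hspa8, Hsp90aa1, Dnajc3 and Dnajc13. Cct8, another CCT subunit, ran from 26.1 to 34.8 in EE and had 20.6, 21.4, 26.5 and 16.3 in SE (difference 0.52 ± 0.21). Hspa5, the HSP70 of the endoplasmic reticulum known as BiP, ran from 22.1 to 35.0 in EE and had 18.8, 20.5, 15.0 and 25.0 in SE (difference 0.46 ± 0.22). In both genes the groups overlapped by 1 SE sample. Hspa8 differed by 0.23 ± 0.11 and Hsp90aa1, the heat-inducible cytosolic HSP90, by 0.45 ± 0.22. Dnajc3 was listed lower in EE, as in CD4+ cells, with 13.5 to 30.1 in EE and 27.4, 41.9, 48.6 and 22.1 in SE (difference -0.64 ± 0.24). Dnajc13, which acts in endosomes, was counted with few molecules, 0 to 7.12 normalized counts in EE and 3.84 to 10.2 in SE (difference -1.41 ± 0.54). The adjusted p of these 6 with limma was 0.837 to 0.923. The CD8+ SE group held no mouse numbered 4 or 5, and in EE these mice had 65.0 and 43.5 for Hsp90aa1 and 216 and 254 for Hspa8. EE mice 1, 2, 3 and 6 had 25.1, 28.0, 38.5 and 48.1 for Hsp90aa1. For Hspa8 they had 165, 168, 243 and 229.

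The difference between EE and SE was compared between both populations by an interaction term. Of 50 members 0 were called, as were 0% of 7938 genes, and edgeR and DESeq2 also called 0 members. With an unadjusted p under 0.05, limma gave 2 members, edgeR 2 and DESeq2 1, beside 4.95% of all genes with limma (2.39% positive and 2.56% negative). Leaving out 1 sample at a time, limma gave 1 to 5 members, and without both samples of high globin it gave 1, Hsp90b1. Both members had a positive interaction, which is an EE minus SE difference larger in CD4+ than in CD8+ cells. Hspbp1, a nucleotide exchange factor of HSP70, had 8.55 to 20.1 in CD4+ EE samples and 6.41 to 10.1 in CD4+ SE samples. In CD8+ cells it had 3.16 to 11.2 in EE and 5.77 to 17.7 in SE. The groups overlapped in each population, and the interaction was 1.16 ± 0.48 (limma, adjusted p = 0.982). Hsp90b1, the HSP90 of the endoplasmic reticulum, had medians of 25.7 under EE and 21.6 under SE in CD4+ cells, and of 24.4 and 28.2 in CD8+ cells, with an interaction of 0.65 ± 0.32 (limma, adjusted p = 0.994).

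Between CD4+ and CD8+ T cells, 3 of 50 members differed, and all 3 were lower in CD4+ cells. They were Dnajc15, Hspe1 and Cct7, a mitochondrial J-domain protein, the lid of the mitochondrial chaperonin and a CCT subunit. Of 7938 genes tested, 4.4% were called at an adjusted p under 0.05 with limma, 2.33% higher and 2.07% lower in CD4+ cells. With an unadjusted p under 0.05, limma listed 3 members higher and 6 lower in CD4+ cells, beside 14.8% of all genes, 7.41% in each direction. The members were listed higher in CD4+ cells in 23 cases and lower in 27, with a median of -0.06 (log2) beside -0.0073 over all genes. Of the 8 CCT genes, 7 were listed lower in CD4+ cells, with a median of -0.16.

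**Figure D2:**
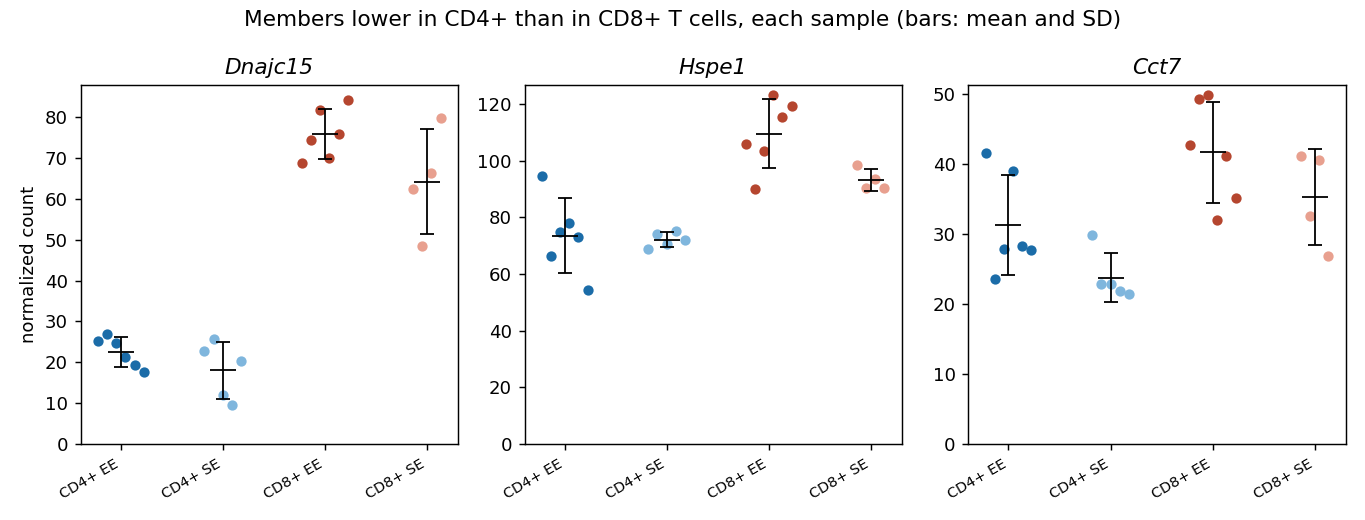
Normalized count of Dnajc15, Hspe1 and Cct7 in each of the 21 samples by group, with the mean and SD as bars and axes from 0. The CD4+ samples of Dnajc15 all lie below the CD8+ samples, and those of Hspe1 and Cct7 overlap with them.

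Dnajc15 (ENSMUSG00000022013) lies on the minus strand of chromosome 14 from 77820681 to 77875125 on GRCm38 and encodes a J-domain protein of the inner mitochondrial membrane. It had 17.5 to 26.8 normalized counts (median 22.9) in CD4+ EE samples, and 22.7, 25.6, 11.9, 9.50 and 20.3 in CD4+ SE samples. It had 68.8 to 84.2 (median 75.2) in CD8+ EE samples, and 62.5, 48.4, 66.2 and 79.8 in CD8+ SE samples. Every CD4+ sample was below every CD8+ sample, as in 0.529% of all genes tested. The difference was -1.79 ± 0.14 (SE, log2), with an adjusted p of 3.70e-16 with limma. No other annotated gene shared 200 bases with it at 90% identity.

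Hspe1 (ENSMUSG00000073676) lies on the plus strand of chromosome 1 from 55088132 to 55091307. In CD4+ cells its mean was 73.5 ± 13.2 (SD, n = 6) under EE, against 72.1 ± 2.52 (SD, n = 5) under SE. In CD8+ cells it was 109.6 ± 12.3 (SD, n = 6) under EE, against 93.2 ± 3.85 (SD, n = 4) under SE. One CD4+ sample, that of EE mouse 1 with 94.4, stood among the CD8+ samples, of which the lowest had 89.9. The difference was -0.47 ± 0.10 (SE, log2; limma, adjusted p = 0.000361). Its partner Hspd1 ran from 17.5 to 34.2 in CD4+ samples and from 17.7 to 43.3 in CD8+ samples, and its difference of -0.18 ± 0.16 was not called. Hspe1 shares long stretches with 5 other annotated genes, 4 of them pseudogenes, so that some molecules may belong to a copy.

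Cct7 (ENSMUSG00000030007), on the plus strand of chromosome 6 from 85451514 to 85468475, had a mean of 31.3 ± 7.18 (SD, n = 6) in CD4+ EE samples, against 23.8 ± 3.46 (SD, n = 5) in CD4+ SE samples. The CD8+ EE samples had 41.7 ± 7.22 (SD, n = 6), against 35.3 ± 6.83 (SD, n = 4) in CD8+ SE samples. The populations overlapped between 26.9 and 41.6. Cct7 shares long stretches with 2 other annotated genes, 1 of them a pseudogene. The difference was -0.48 ± 0.14 (SE, log2) at an adjusted p of 0.0273 with limma, and it depended on single samples. Without EE mouse 2 of CD4+ cells, EE mouse 2 or 3 of CD8+ cells, or SE mouse 1 or 3 of CD8+ cells, the adjusted p was 0.0568, 0.0548, 0.0579, 0.0875 and 0.0835, and without both samples of high globin 0.0739. EdgeR called 1 more member, Dnajb12, higher in CD4+ cells with a log2 difference of 1.33. With all 21 samples limma did not call it, but it did without EE mouse 2 or SE mouse 4 of CD4+ cells (adjusted p = 0.0439 and 0.0277), and without SE mouse 1 of CD4+ cells it called Dnajc4 higher (adjusted p = 0.0239).

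No other member was called by limma with all samples. Cct6a, a CCT subunit, was the one CCT gene listed higher in CD4+ cells, by 0.26 ± 0.13 (limma, unadjusted p = 0.0407). Hsp90aa1 was listed 0.26 ± 0.15 higher (limma, unadjusted p = 0.0909) and Dnajc19, a mitochondrial J-domain gene, 0.27 ± 0.21 higher (limma, unadjusted p = 0.2002). Dnajc4 and Dnajb12 were listed higher in CD4+ cells at means under 5 normalized counts, and Hsp90ab1, Hspa8 and Dnajc9 lower, with differences of -0.20 ± 0.08, -0.21 ± 0.09 and -0.45 ± 0.20. The 6 B cell markers summed higher in most CD4+ samples than in CD8+ samples, where Ms4a1 was at 0 in every sample. The 2 natural killer cell markers found in the table summed to at most 13.8 in CD4+ samples and to 41.7 to 81.2 in CD8+ samples. In CD8+ samples this sum was nearly all Klrd1. The other marker, Klrb1c, had a median of 0 in all 4 groups and at most 0.859 in CD8+ samples. Per the study's methods, the sort took cells that carried CD45 and CD3, lacked CD11b and carried CD4 or CD8, a gate that leaves out B cells and natural killer cells, which lack CD3. The part of these markers in the differences was not tested.

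CD4+ and CD8+ samples of one mouse were then compared over the 9 mice with both. For each gene the deviation of log2(normalized count + 1) from the mean of the mice of the same environment was taken in each population, and both sets of deviations were correlated. Over all members, a positive r was about as frequent as over all genes. Of 49 members tested, 25 had an r above 0 (51.0%), beside 52.3% of all 7348 genes, and among members with a mean above 10 it was 14 of 32, beside 55% of all genes with such a mean. With Spearman's rho it was 18 of these 32, beside 53.3% of all genes with such a mean. Without the 2 mice of high globin it was 17 of these 32, beside 54.2%. A small group did stand high. With an unadjusted exact permutation p under 0.05, 5 members had an r above 0 (10.2%), beside 2.95% of all genes, and 0 members had an r below 0, beside 2.12% of all genes. After adjustment over all genes 0 members were called. The 4320 permutations within environments allow no p below 0.000231, and 35 genes at that p would be needed for an adjusted p under 0.05.

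**Figure D3:**
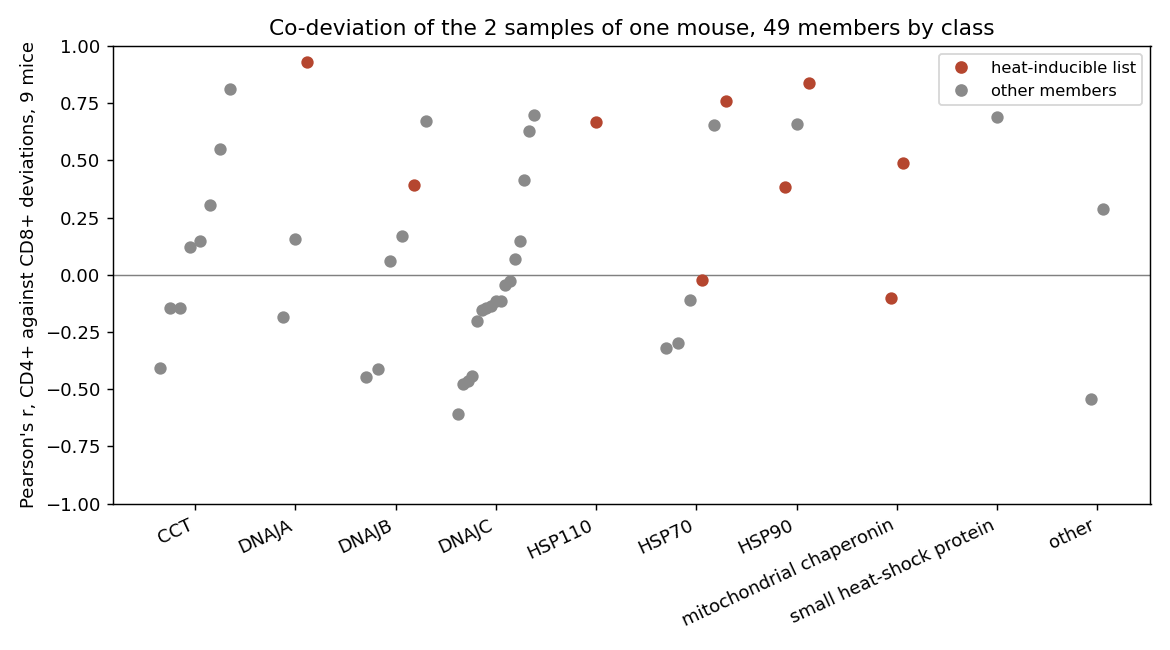
Pearson's r between the CD4+ and CD8+ deviations over 9 mice, one point per member with a mean above 2 in both populations, by chaperone class, with the heat-inducible list in red. Dnaja1, Hsp90aa1, Hspa8 and Hsph1 are among the highest points. So are Cct8, Dnajc30, Hspb11 and Dnajb2, which are outside the list and lie above Hsph1. Most DNAJC points lie below 0.

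The 5 members were Dnaja1, Hsp90aa1, Cct8, Hspa8 and Hsph1, and all but Cct8 belong to the heat-inducible list, Hspa8 as one of its genes that are abundant without heat. Of 9 list members tested, 7 had an r above 0, with a median of 0.49, while 18 of 40 other members did, with a median of -0.08. Among those others, Dnajc30, Hspb11 and Dnajb2 had an r of 0.70, 0.69 and 0.67, with no exact permutation p under 0.05. Cct8, Hspa8 and Hsp90aa1 were also among the genes with a small unadjusted p between environments in CD8+ cells, but the deviations here are taken within environments. Of 17 DNAJC genes, 5 had an r above 0, but 8 had a rho above 0, and 8 an r above 0 without EE mouse 1.

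Dnaja1 (ENSMUSG00000028410, plus strand of chromosome 4, 40722150 to 40737149) had the highest r of the members. Its normalized counts in CD4+ and CD8+ cells were 27.7 and 41.9 in EE mouse 1, 36.5 and 49.3 in EE mouse 2, and 52.4 and 64.9 in EE mouse 3. They were 65.7 and 89.3 in EE mouse 4, 78.6 and 88.6 in EE mouse 5, and 74.7 and 91.9 in EE mouse 6. In SE they were 35.0 and 27.4 in mouse 1, 54.0 and 71.5 in mouse 3, and 92.4 and 88.4 in mouse 6. The mice that were low in CD4+ cells were low in CD8+ cells too, and the deviations had the same sign in 7 of 9 mice. Pearson's r was 0.93 (exact permutation p = 0.000926) and Spearman's rho 0.92 (exact permutation p = 0.00602), while the p adjusted over all genes was 0.928. Here and for the genes that follow, r was taken again without the 2 mice whose CD4+ deviation was farthest from the median, and without the 2 that were so in CD8+ cells. For Dnaja1 it was 0.89 without EE mouse 1 and SE mouse 6 (by CD4+) and 0.94 without EE mouse 1 and SE mouse 1 (by CD8+), and leaving out 1 mouse at a time gave 0.91 to 0.97.

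**Figure D4:**
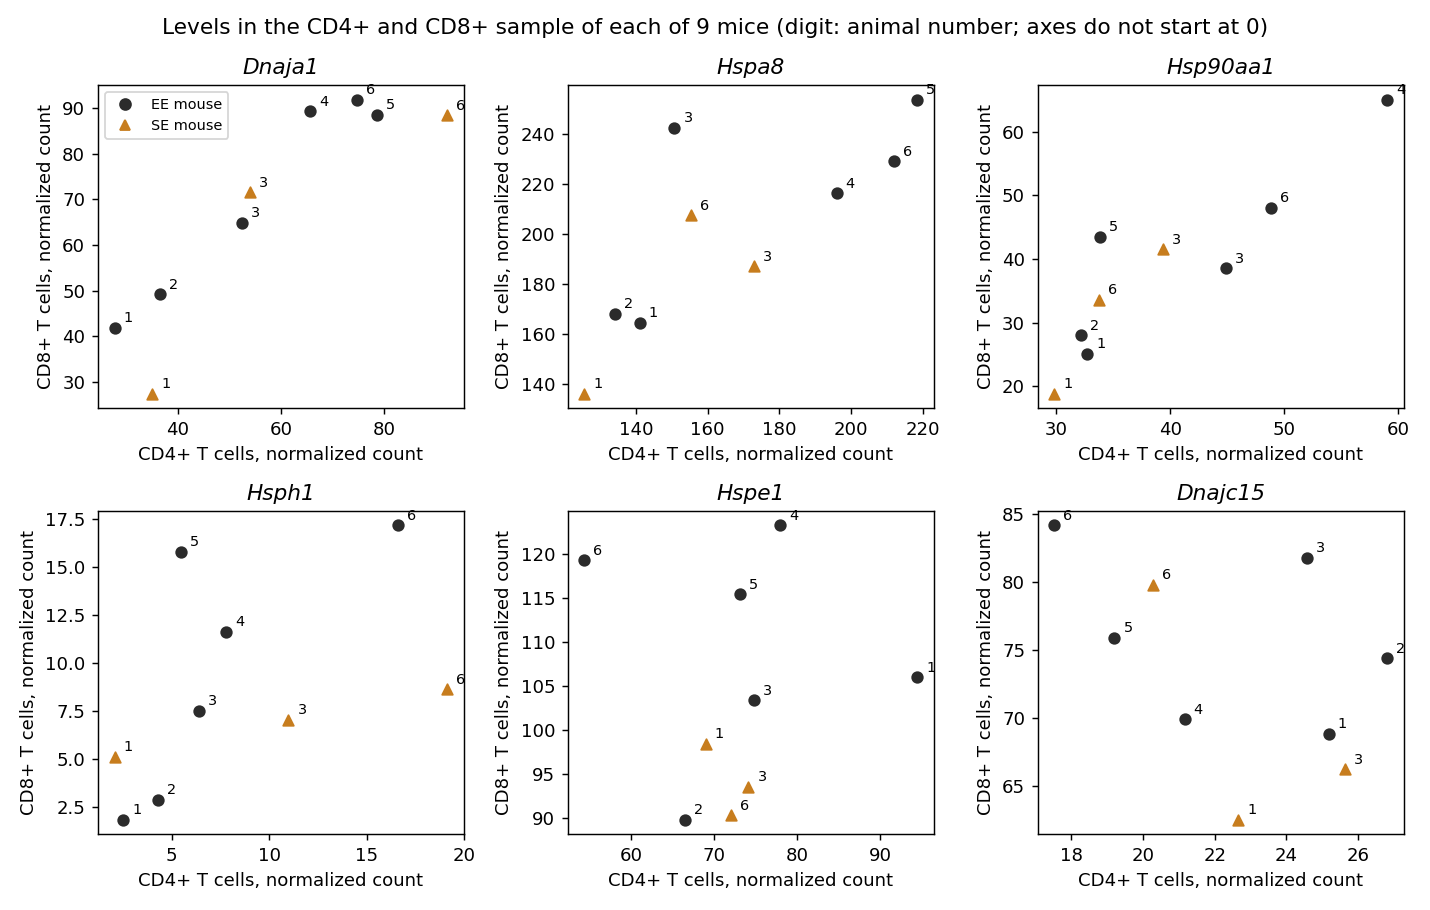
Normalized count in the CD4+ sample (x axis) against the CD8+ sample (y axis) of each of 9 mice for 6 members, with circles for EE, triangles for SE and the animal number beside each point. Axes do not start at 0. Dnaja1, Hspa8, Hsp90aa1 and Hsph1 are low in both samples of the mice numbered 1, and Hspe1 and Dnajc15 show no such order.

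Hspa8 (ENSMUSG00000015656), on the plus strand of chromosome 9 from 40800984 to 40810087, shares long stretches with 13 other annotated genes, 12 of them pseudogenes. Its product is the HSP70 that works with DNAJA1. It had 141 and 165 in EE mouse 1, 134 and 168 in EE mouse 2, and 126 and 136 in SE mouse 1. It had 219 and 254 in EE mouse 5 and 212 and 229 in EE mouse 6. Of the 9 mice, EE mice 1 and 2 and SE mouse 1 were the lowest in CD4+ cells and in CD8+ cells. Pearson's r was 0.76 (exact permutation p = 0.041), and it was 0.47 without EE mice 1 and 2 (by CD4+) and 0.61 without EE mouse 1 and SE mouse 1 (by CD8+), so that it rests largely on these mice. Spearman's rho was 0.68 (exact permutation p = 0.056). Hsp90aa1 (ENSMUSG00000021270), on the minus strand of chromosome 12 from 110690605 to 110702728, had 32.7 and 25.1 in EE mouse 1, 29.9 and 18.8 in SE mouse 1, and 59.0 and 65.0 in EE mouse 4, where both samples were highest. Its r was 0.84 (exact permutation p = 0.00741), with 0.71 without EE mice 2 and 4 (by CD4+) and 0.84 without EE mouse 1 and SE mouse 1 (by CD8+), while rho was 0.80 (exact permutation p = 0.00694).

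Hsph1 (ENSMUSG00000029657), on the minus strand of chromosome 5 from 149614287 to 149636376, was counted with few molecules, 2 to 20 per sample. It had 2.52 and 1.86 normalized counts in EE mouse 1, 2.06 and 5.14 in SE mouse 1, and 16.6 and 17.2 in EE mouse 6. Its r was 0.67 (exact permutation p = 0.00486) which was 0.77 without EE mouse 6 and SE mouse 1 (by CD4+) but 0.62 without EE mice 1 and 2 (by CD8+), with a rho of 0.73 (exact permutation p = 0.0125). Cct8 had an r of 0.81 (exact permutation p = 0.0449), which was 0.50 without EE mouse 2 and SE mouse 6 (by CD4+) and 0.56 without SE mice 3 and 6 (by CD8+), and its rho of 0.68 had an exact permutation p of 0.102. The adjusted p of these 4 was 0.951 each. Hsp90b1 had an r of 0.66 (exact permutation p = 0.0894), and its deviations had the same sign in all 9 mice. The lowest r among members with a mean above 10 were -0.48 for Dnajc15, -0.46 for Dnajc19 and -0.44 for Dnajc9, a J-domain protein that also binds histones, with exact permutation p of 0.187, 0.247 and 0.259, and -0.33, -0.76 and -0.35 without the 2 mice farthest by CD4+. Without the 2 farthest by CD8+ they were 0.11, 0.30 and -0.01, so that no negative relation holds. Hspd1 had an r of 0.49 (exact permutation p = 0.236), which was 0.05 without EE mouse 4 and SE mouse 1 (by CD4+) and 0.50 without EE mouse 6 and SE mouse 6 (by CD8+). Hspe1 had an r of -0.10 (exact permutation p = 0.846), which was 0.72 without EE mice 1 and 6 (by CD4+) and -0.70 without EE mice 2 and 4 (by CD8+), so that no direction can be read for either gene of the mitochondrial chaperonin. Without the 2 mice of high globin, r was 0.97 for Dnaja1, 0.76 for Hspa8, 0.81 for Hsp90aa1, 0.56 for Hsph1, 0.66 for Cct8, 0.53 for Hsp90b1, 0.50 for Hspd1 and 0.32 for Hspe1.

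Class sums were compared in the same way, as a description. Over the 9 mice, r between the CD4+ and CD8+ deviations was 0.81 for the sum of all members (rho 0.92). A sum is led by its most abundant genes, and no sum of genes outside the set is given beside it. For the classes, r was 0.93 for DNAJA, 0.78 for CCT, 0.77 for small heat-shock proteins, 0.70 for HSP70, 0.67 for HSP110, 0.66 for HSP90, 0.19 for DNAJB, -0.18 for the mitochondrial chaperonin and -0.25 for DNAJC. The corresponding rho was 0.93, 0.45, 0.72, 0.40, 0.70, 0.58, 0.18, -0.13 and -0.22. The sums did not follow the single genes in every class, since the median r of single genes was -0.07 over 6 HSP70 genes and 0.19 over both genes of the mitochondrial chaperonin. The DNAJA sum is mostly Dnaja1 and the HSP70 sum mostly Hspa8. Over the profile of all members, the r of a CD4+ sample with the CD8+ sample of its own mouse had a mean of 0.14, from -0.05 to 0.34 over 9 mice. With the CD8+ samples of other mice of the same environment it had a mean of -0.04, from -0.29 to 0.40 over 36 pairs. Deviations are centred within an environment, so that a mean above 0 for own mice goes with one below 0 for other mice. Over all 7348 genes the mean was 0.017 with the own mouse and -0.0042 with other mice.

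Dnaja1 also differed by the animal number in the labels. The labels number the mice of EE and of SE separately, so that mice with one number in EE and SE are different animals, and they do not say what the number stands for. The column headers carry a further running number, which the labels list as a number of cells and which rises with the animal number within each environment, so the animal number cannot be told apart from what that number records. The number of the CD8+ sample of SE mouse 6, in 1 of the 3 SE pairs, lies far outside the sequence of the others. Over all genes the deviations of same-numbered EE and SE samples had correlations from -0.0065 to 0.03 in 9 pairs, and over the members from -0.24 to 0.54. A test of the animal number beside the 4 groups (limma F test), added after these values had been seen, called 1 of 7938 genes (0.0126%), which was Dnaja1 (F = 18.2, adjusted p = 5.67e-07). The 21 samples hold both populations of 9 mice, and both samples of a mouse were alike in Dnaja1, so that this p, which takes every sample as separate, is too small. With 1 value for each of the 12 mice, the limma F test called 3 genes (0.0378%), and Dnaja1 was the second of them (adjusted p = 0.000155). In CD8+ samples alone, with 10 mice, it called 5 of 7840 genes (0.0638%), Dnaja1 among them (limma, adjusted p = 0.0115). In CD4+ samples alone, with 11 mice, it called 1 of 7939 genes (0.0126%), and Dnaja1, which ranked second, did not pass (limma, adjusted p = 0.068).

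**Figure D5:**
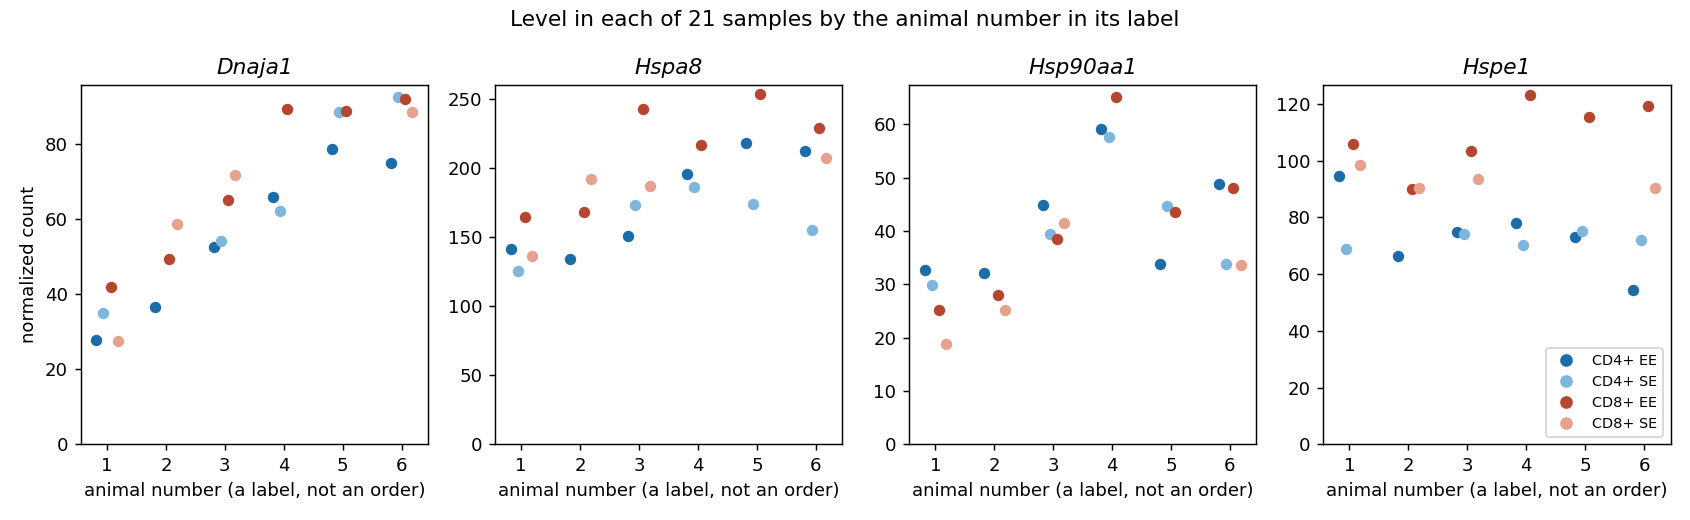
Normalized count of Dnaja1, Hspa8, Hsp90aa1 and Hspe1 in each of the 21 samples, by the animal number in the label (x axis), with one colour per group and axes from 0. Dnaja1 is lowest in the mice numbered 1 in all 4 groups, Hsp90aa1 is highest in those numbered 4 in the 3 groups that hold one, and Hspe1 shows no such order.

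Dnaja1 was 27.4 to 41.9 in the 4 samples of mice numbered 1 (mean 33.0). It was 36.5 to 58.7 in the 3 samples of mice numbered 2, 52.4 to 71.5 in the 4 samples of mice numbered 3, and 62.2 to 89.3 in the 3 samples of mice numbered 4. It was 78.6 to 88.6 in the 3 samples of mice numbered 5 and 74.7 to 92.4 in the 4 samples of mice numbered 6. The samples of numbers 1 and 6 did not overlap, in either environment or population. The mouse numbered 1 was the lowest of its group in all 4 groups for Dnaja1, 1 of 50 members, and for 0.113% of 7938 genes with a mean above 2. Dnaja1 overlaps 1 annotated gene on its own strand and 2 on the other, and shares long stretches with 5 other genes, 3 of them pseudogenes.

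In the limma F test of the animal number, Hspa8 had rank 3 of all genes with an adjusted p of 0.113, and Hsp90aa1 and Hsph1 had ranks 6 and 10, both with an adjusted p of 0.137. These did not pass, and with 1 value per mouse the adjusted p of all 3 was 0.49. Of 50 members, 9 had an unadjusted p under 0.05, beside 5.81% of all genes. Besides the 4 named they were Hspb11, Dnajb1, Dnajc4, Hsp90ab1 and Hspd1. Dnajb1, the main inducible J-domain partner of HSP70, was lowest in the mice numbered 1 in CD8+ EE and CD8+ SE cells, with 6.51 and 10.3, and in CD4+ SE cells with 11.3. In CD4+ EE cells the lowest value, 10.7, was in mouse 3 instead.

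The members most like Dnaja1 were also found over all samples, after each group was centred. Among 2726 genes with a mean above 10, Hspa8 had the highest r with Dnaja1, 0.84 over 21 samples, against a median of -0.02 over these genes and 0.14 over the members. Ranks 2 to 10 were all genes outside the set, led by Akna (0.77) and Ddit4 (0.76). The next member, Hsp90aa1, had rank 11 (0.68). Within CD4+ cells, over 11 samples centred by environment, 6 of 49 members had a positive r with a permutation p under 0.05, beside 3.69% of all genes. A negative r at such a p was found for 1 member. Within CD8+ cells, over 10 samples, there were 4 of 50 with a positive r, beside 3.14% of all genes, and 0 with a negative one. None of the members passed the adjustment over all genes in either population. These samples share the animal numbers just described.

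Hspa8 had an r with Dnaja1 of 0.79 in CD4+ cells (permutation p = 0.0102, rho 0.74 with p = 0.0219) and 0.89 in CD8+ cells (permutation p = 0.00759, rho 0.71 with p = 0.0424). Without both mice numbered 1, these were 0.65 in CD4+ cells and 0.71 in CD8+ cells. Hsph1 had 0.76 in CD4+ cells (permutation p = 0.01, rho 0.68 with p = 0.0264) and 0.74 in CD8+ cells (permutation p = 0.00533, rho 0.82 with p = 0.00437). Without both mice numbered 1, Hsph1 had 0.55 and 0.97. Hsp90aa1 had 0.88 in CD8+ cells (permutation p = 0.00127, rho 0.83 with p = 0.0071), and 0.47 in CD4+ cells (permutation p = 0.168, rho 0.43 with p = 0.221), or 0.80 and 0.12 without both mice numbered 1.

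Related genes outside the set were followed as lists. The heat-shock factor gene Hsf1 had a mean of 8.05 normalized counts and was called in no comparison. Hsbp1, a small protein known to bind HSF1, was 0.53 ± 0.15 higher in CD4+ cells (SE, log2; limma, adjusted p = 0.0253). Of 21 co-chaperones of HSP70 and HSP90 tested, 0 were called between environments in either population or between populations, and 12 of 21 had an r above 0 over the mice, with 0 at an exact permutation p under 0.05. Of 13 folding genes of the endoplasmic reticulum and of 8 CCT partners (7 of them tested in CD8+ cells), 0 were called in any of the comparisons between environments or populations. Of 11 early response genes such as Fos and Jun, known to rise within minutes of cell stimulation, 6 to 8 could be tested and 0 were called in these comparisons. As a description, their median r with Dnaja1 over the 21 samples was -0.10, beside 0.55 over the heat-inducible list.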

How the data were processed

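RNA of sorted CD4+ and CD8+ T cells was sequenced with unique molecular identifiers in 21 samples. Per the labels and the study's methods, the authors trimmed reads with cutadapt, aligned them with STAR 2.4.0a to mm10, counted molecules per gene, removed samples of low purity and genes of low abundance, and divided by DESeq2 size factors. The deposited signal values are these normalized counts. All of them (100%) were whole multiples of the step of their column within 0.001, so that molecules were recovered, and library totals were 145546 to 221454. Intervals and floors from molecules cover counting error only. The 46 pairs of samples within groups all differed beyond counting noise.

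Genes whose mean over the samples compared exceeded 2 normalized counts were tested with limma 3.58.1 (trend, R 4.3.3) on log2(normalized count + 1), with Benjamini-Hochberg adjustment over all of them. Fold changes of low genes are understated on this scale. EE and SE were compared within each population, and CD4+ and CD8+ cells and the interaction in one fit of 4 groups. All tests were two-sided. EdgeR 4.0.16 and DESeq2 1.42.0 on the molecules, another pseudocount, other filters, equal totals, replicate blocks and leaving out each sample were alternatives. The fits were tested on simulated data with known changes. The animal number was tested over the samples, over mice with 1 value each after the difference between populations was removed, and in each population alone, all added after the data were seen. CD4+ and CD8+ samples of one number and environment come from one animal and were paired so, and mice were permuted within environments with SciPy 1.17.1. The members, lists and tests were chosen with earlier results of these data known.

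The rule for naming members took the 2 highest means of each class, those called, and the 3 higher and 3 lower members of smallest p in each comparison. It also took the 5 highest and 3 lowest r, and the heat-inducible list of 13 genes, 12 of which are in the table (Hspb1 was not analysed here). The picks by smallest p and by r were made among members with a mean above 10. Dnaja2, Dnajb6, Hspbap1, Dnajc1 and Dnajc2 met this rule but are not described above. Cct2, Dnajb2, Dnajb12, Dnajc4, Dnajc13 and Dnajc30 were named after their values were seen. Positions are from the GENCODE M21 annotation. Of the 68 members, 32 share at least 200 bases at 90% identity with another annotated gene.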

Additional observations from a re-analysis of the deposited data

Results flagged for a closer look

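Each of 31 members was examined in each group for a sample far from the others, by the gap to its neighbour relative to the range of the group (Dixon's 95% limits). Of 121 sets of values, 12 had such a sample, the highest of its group each time. Chance gives about 1 in 20 such sets, but in 6 of the 12 every other sample of the group was at 0, so that any molecule is marked and this rate does not apply.

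Among members with a mean above 8 normalized counts, Cct7 had 29.9 normalized counts in the CD4+ sample of SE mouse 1, where the other 4 samples had 21.4 to 22.9. Dnajc3 had 40.2 in the CD4+ sample of EE mouse 5, above 19.4 to 26.7 in the others. Hspb11 had 21.4 in the CD4+ sample of EE mouse 3, Hspbp1 10.1 in the CD4+ sample of SE mouse 4 and Hsph1 16.6 in the CD4+ sample of EE mouse 6.

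The remaining flags were on genes of few molecules. Hspa1a, at 0 in all other samples of these groups, had 0.914 in the CD4+ sample of SE mouse 4, 0.930 in the CD8+ sample of EE mouse 1 and 2.65 in the CD8+ sample of SE mouse 3. Its near-identical copy Hspa1b had 4.50 in the CD4+ sample of SE mouse 6 and 0.883 in the CD8+ sample of SE mouse 3. Dnajb4 had 3.66 in the CD4+ sample of EE mouse 5, and Hspb6 had 1.83 in the CD4+ sample of SE mouse 3. The CD8+ sample of SE mouse 3 is the one with the highest globin sum.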

How the results depend on the processing

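No result turned its direction past a threshold under any alternative. Counts of called members between EE and SE and for the interaction stayed at 0 in all of them, and between CD4+ and CD8+ cells they ran from 2 to 4, with 2 when both samples of high globin were left out and 4 with edgeR or without the CD4+ sample of SE mouse 1 or 4. Leaving out each sample in turn, the log2 difference of Cct7 ran from -0.54 to -0.44 and was called in 16 of 21 fits, while those of Dnajc15 and Hspe1 were called in all 21. Members with an r above 0 between both samples of a mouse numbered 22 to 29 when 1 mouse was left out. Of only the 32 members with a mean above 10, they numbered 14. This is a share of 43.8% beside 51.0% of all 49 members, and the median r was -0.07 beside 0.06. With the same total for every sample, 2 members rather than 1 were called between animal numbers, and in CD4+ samples alone 0, with fewer samples. Class medians near 0 turned sign with the filter at 10, from -0.03 to 0.06 for HSP70 between EE and SE in CD8+ cells and from 0.13 to -0.04 for DNAJC between populations, by fewer members.

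An EE and an SE mouse with one number are separate animals, so the number was not taken to pair them. Over all genes their samples deviated together by at most 0.03 in 9 pairs, but both samples of one mouse did so by only -0.014 to 0.0375, so this measure does not tell shared from separate animals. With a replicate block for the animal number, 0 members were called between EE and SE in either population, and 4 rather than 7 had an unadjusted p under 0.05 in CD8+ cells, with a median over members of 0.07 (log2). With the mouse as a replicate block, which pairs both samples of one animal, 3 members were called between populations and 0 for the interaction, and no call changed. Each environment was a single cage, the SE group of CD8+ cells held 4 samples, and 18 of 68 members had a mean of 2 or less, under the filter.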
